A study of Mus musculus with 12 samples.

Results

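The eicosanoid synthesis enzymes described here are 10 genes, chosen by symbol from the 38739 gene symbols measured: *Pla2g4a*, which frees arachidonic acid from membrane phospholipids, 5 genes of the prostaglandin branch (*Ptgs1*, *Ptgs2*, *Ptges*, *Hpgds* and *Tbxas1*) and 4 genes of the leukotriene branch (*Alox5*, *Alox5ap*, *Ltc4s* and *Lta4h*). They were measured by RNA sequencing of bone marrow-derived macrophages (BMDMs), which are macrophages grown from mouse marrow in culture, in 12 libraries. The WT cells came from C57BL/6J mice and the cGAS-/- cells from mice of that background lacking cyclic GMP-AMP synthase, the sensor of DNA in the cytosol. According to the methods, young adult males were used. Cells of each genotype received medium (UT) or lipopolysaccharide (LPS) from *E. coli* 026:B6, with 3 libraries in each of the 4 groups. The sample labels give 100 ng/mL of LPS for 1 h, whereas the study's methods give a higher dose for a full day, so the exposure behind the LPS groups is uncertain. The sources do not say whether the libraries of a group came from separate animals or cultures, and a legend of the study calls them technical replicates, so the p-values measure the spread between these libraries.

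Eicosanoids are short-lived lipid mediators made from arachidonic acid. In the prostaglandin branch, the cyclooxygenases COX-1 (*Ptgs1*, usually constitutive) and COX-2 (*Ptgs2*, induced by inflammatory stimuli) make prostaglandin H2, which microsomal prostaglandin E synthase-1 (*Ptges*), hematopoietic prostaglandin D synthase (*Hpgds*) and thromboxane A synthase (*Tbxas1*) turn into prostaglandin E2, prostaglandin D2 and thromboxane A2. In the leukotriene branch, 5-lipoxygenase (*Alox5*) works with its activating protein FLAP (*Alox5ap*) to make leukotriene A4, which leukotriene A4 hydrolase (*Lta4h*) turns into leukotriene B4 and leukotriene C4 synthase (*Ltc4s*) into leukotriene C4. Macrophages are a source of both kinds of mediator, and COX-2 with microsomal prostaglandin E synthase-1 forms the inducible route to prostaglandin E2.

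Values are TPM, a transcript abundance corrected for transcript length and library size, as deposited by the authors. The values appear to be averaged over the transcripts listed for a symbol, so a level compares well between samples but less well between genes. The number of reads is unknown. WT LPS replicate 3 stood apart from the other libraries: 18.5% of its total came from protein-coding genes, against 39.7% to 54.4% in the other 11 libraries, and a ferritin pseudogene (*Fth-ps3*) took 31.7% of its total, against 6.24% to 17.7%. Since it stood apart, values with it left out are also given. *Cgas* was at 1.19 to 3.25 TPM in the WT libraries and at 0.0703 to 0.291 TPM in the cGAS-/- libraries, with no overlap. The 9 macrophage markers present in the table were all at 1 TPM or more in every library, with *Lyz2* the highest. Mast cells and basophils are another source of *Hpgds* and *Ltc4s*. Only 7 of the 14 genes on their list were in the table. These summed to 0.299 to 1.80 TPM, and *Fcer1a* among them was at 0 in all 12 libraries. The rest of that list could not be seen. One label says the RNA was taken from neutrophils. Neutrophil markers summed to 173 to 244 TPM in WT UT, 92.0 to 403 TPM in WT LPS, 85.8 to 157 TPM in cGAS-/- UT and 98.1 to 125 TPM in cGAS-/- LPS, against 22760 to 36048 TPM for macrophage markers over all 12. Most of the latter was *Lyz2*, which neutrophils also express, and the other 8 summed to 2132 to 7677 TPM.

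The members lie on 6 chromosomes in the GENCODE annotation of GRCm39. *Pla2g4a* (chr1:149705369-149837053, minus strand) and *Ptgs2* (chr1:149975194-149983978, plus strand) are neighbours, 138 kb apart with no protein-coding gene annotated between them. *Ptgs1* (chr2:36120438-36142287) and *Ptges* (chr2:30779483-30820196) share chromosome 2, and *Tbxas1* (chr6:38852203-39061523), *Hpgds* (chr6:65094001-65121983) and *Alox5* (chr6:116387032-116438139) share chromosome 6. *Alox5ap* (chr5:149196003-149227762), *Lta4h* (chr10:93289210-93320749) and *Ltc4s* (chr11:50127288-50129443) each lie alone. A processed pseudogene on the opposite strand of *Hpgds* (*Gm17147*, up to 21.7 TPM) and one on the same strand as *Ptges* (*Gm13400*, up to 2.45 TPM) overlap those genes, and the protein-coding gene *Hipk2* (up to 4.94 TPM) overlaps *Tbxas1* by 1241 bases on the opposite strand. Other overlapping genes are non-coding or unclassified and were at 1.49 TPM or less where measured. Their share of the reads cannot be told apart, since the strand setting of the counting is not given in the sources used here.

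Promoter sequences are shown for the 2 members that rose with LPS (*Ptgs2*, *Ptges*) and for the member of the same step that fell in both genotypes (*Ptgs1* for the cyclooxygenases, *Hpgds* for the terminal synthases). Each is the 250 bases before the RefSeq start, on the gene's own strand, from the GRCm38.p6 build, which is not the build of the coordinates above. Capitals mark letters that match the C/EBP motif (TTNCNNAA) or the PU.1 core (GAGGAA) on either strand.
Ptgs2 (chr1:150099781-150100030, plus): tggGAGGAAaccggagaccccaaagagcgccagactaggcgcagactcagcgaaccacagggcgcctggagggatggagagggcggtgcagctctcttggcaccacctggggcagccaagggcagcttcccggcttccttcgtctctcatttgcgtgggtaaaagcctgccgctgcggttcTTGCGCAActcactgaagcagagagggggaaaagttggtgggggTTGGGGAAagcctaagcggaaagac
Ptges (chr2:30903298-30903547, minus): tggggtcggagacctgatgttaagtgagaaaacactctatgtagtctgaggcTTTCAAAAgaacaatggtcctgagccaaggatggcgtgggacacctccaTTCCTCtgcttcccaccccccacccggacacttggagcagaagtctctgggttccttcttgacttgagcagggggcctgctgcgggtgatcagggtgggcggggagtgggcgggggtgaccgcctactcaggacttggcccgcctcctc
Ptgs1 (chr2:36230176-36230425, plus): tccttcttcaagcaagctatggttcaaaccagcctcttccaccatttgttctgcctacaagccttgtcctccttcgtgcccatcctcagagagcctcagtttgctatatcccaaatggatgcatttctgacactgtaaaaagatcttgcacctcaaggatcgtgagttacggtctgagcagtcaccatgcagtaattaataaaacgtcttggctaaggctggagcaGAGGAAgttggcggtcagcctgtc
Hpgds (chr6:65144731-65144980, minus): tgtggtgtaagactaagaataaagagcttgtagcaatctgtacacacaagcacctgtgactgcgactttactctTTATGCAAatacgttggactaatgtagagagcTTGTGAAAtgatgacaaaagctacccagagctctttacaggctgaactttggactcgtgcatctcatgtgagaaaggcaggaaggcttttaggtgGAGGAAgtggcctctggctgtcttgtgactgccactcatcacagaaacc

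A RefSeq promoter was at hand for 9 of the 10 members, all but *Alox5ap*, and 9 motifs were searched on both strands. The C/EBP motif was in 4 of the 9 (*Ptgs2*, *Ptges*, *Hpgds* and *Pla2g4a*) and in 36.8% of 32851 promoters of the same length. In *Ptgs2* it occurred as the palindrome TTGCGCAA from base -69 to -62, and again from -25 to -18. The PU.1 core, named for a factor that macrophages depend on, was in 7 of the 9 members and in 23.3% of all promoters. Members were counted as genes, over any of their promoters, and the shares are of single promoters. Counted by gene, a comparison added after these results, the share was 25.9% of 27025 genes for the PU.1 core and 40.3% for the C/EBP motif. The AP-1 motif (TGANTCA) was in *Tbxas1* (6.75% of all), and the TATA motif (TATAAA) in *Pla2g4a* and *Tbxas1* (12.4%). The kappa B motif (3.9% of all), the cyclic AMP response element (TGACGTCA, 1.55%), its core TGACG (17.8%), the E-box (CACGTG, 6.02%) and the interferon-stimulated response element (2.98%) were in 0 of the 9. TGACGTCA holds TGACG, so those 2 searches overlap. These absences hold for the 250 bases searched, and bases farther upstream were not searched. The 50 bases after the start were then added, a window chosen after these results were seen. In the longer window, *Ptgs2* had TGACG (20.8% of all promoters) and the E-box (7.15%), and no other member had either. The PU.1 core was there in 8 of the 9 members, with *Ltc4s* added, and in 28.3% of all promoters.

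In untreated WT macrophages the highest member was *Alox5ap* with a mean of 176 TPM, followed by *Hpgds* with 67.9 TPM and *Tbxas1* with 14.8 TPM. *Ptgs1* (8.39 TPM) and *Lta4h* (8.05 TPM) came next and overlapped. *Pla2g4a* (1.95 TPM) and *Ltc4s* (1.65 TPM) also overlapped, as did each neighbouring pair among *Ptgs2* (0.7503 TPM), *Ptges* (0.370 TPM) and *Alox5* (0.305 TPM) at the low end. Untreated cGAS-/- cells had the same leading 3, with means of 202, 71.0 and 13.4 TPM. In cGAS-/- LPS cells, *Ptges* (55.0 TPM) and *Ptgs2* (54.6 TPM) stood directly under *Alox5ap* (91.6 TPM), and *Hpgds* followed with 16.3 TPM. This order depends on the averaging over transcripts. Multiplied by the smallest whole number of transcripts that the decimals allow, *Hpgds* came first in untreated WT cells. It was at 204, against 176 for *Alox5ap*, with overlap, and *Lta4h* (161) came next. Multiplied by the number of transcripts in GENCODE, *Alox5ap* stayed first in untreated WT cells (2293, against 679 for *Hpgds*, without overlap).

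**Figure D1:**
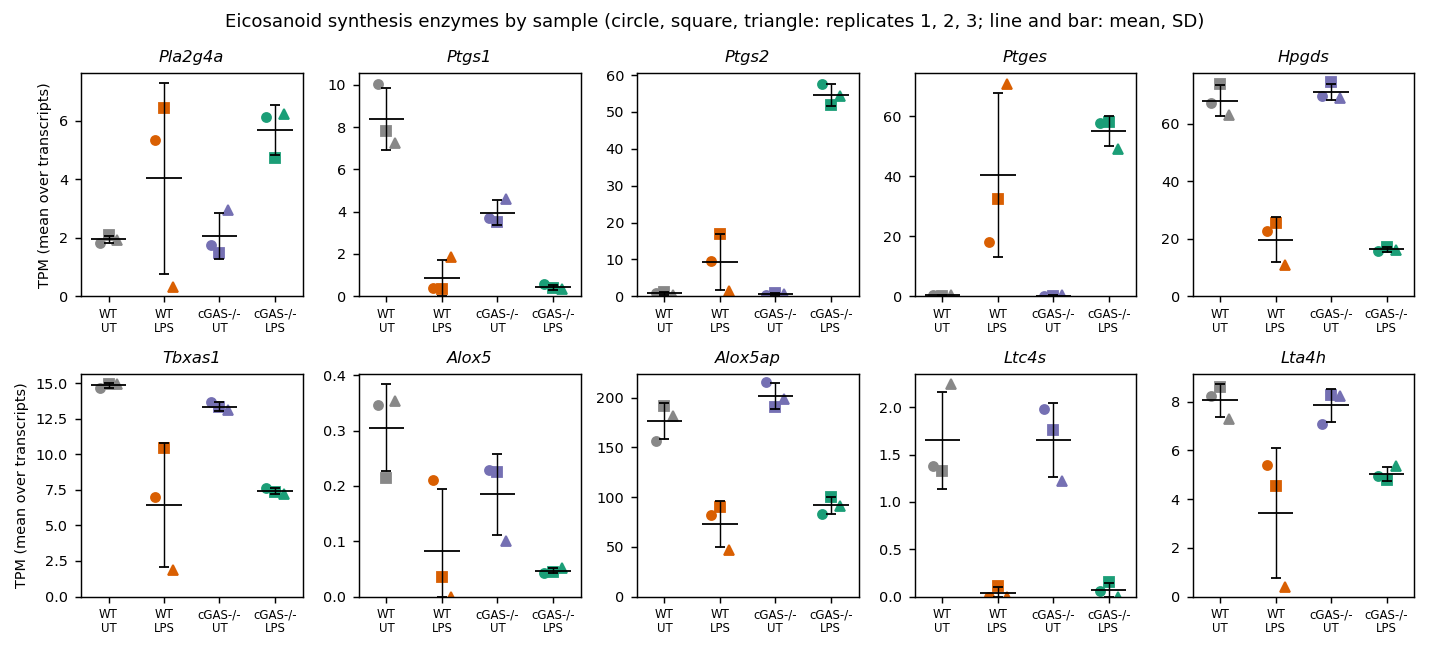
TPM (vertical axis, from 0, separate scale per gene) of the 10 members in the 12 libraries, with *Pla2g4a*, the prostaglandin branch and then the leukotriene branch. Points are libraries, lines and bars the mean and SD (n = 3). *Ptgs2* in cGAS-/- LPS (51.8 to 57.6 TPM) lies above every WT LPS library (1.49 to 16.8 TPM), and WT LPS replicate 3 (triangle) is the lowest WT LPS library for 7 of the members.

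In both genotypes LPS raised the inducible prostaglandin E2 pair, *Ptgs2* and *Ptges*, and lowered *Ptgs1*, *Hpgds*, *Alox5ap* and *Ltc4s*. In WT cells, 7 of the 9 members tested passed (limma, Benjamini-Hochberg adjusted p under 0.05 over 11887 genes): *Ptgs2* and *Ptges* rose, and *Ptgs1*, *Hpgds*, *Tbxas1*, *Alox5ap* and *Ltc4s* fell. Among all genes tested, 27.6% passed in this comparison, with 4.31% higher and 23.3% lower. In cGAS-/- cells 6 of 9 passed, 2 up and 4 down, against 13.8% of all genes, 4.76% higher and 9.06% lower. Without WT LPS replicate 3, 9 of 9 passed in each genotype, with 3 up and 6 down, where the share of all genes was 34.7% in WT (8.26% higher, 26.5% lower) and 30.8% in cGAS-/- (9.19% higher, 21.6% lower). The added members were *Pla2g4a*, which was higher, and *Lta4h* in both genotypes with *Tbxas1* in cGAS-/-, which were lower. The comparisons in WT and in cGAS-/- use different libraries but share one estimate of the spread. The WT LPS libraries spread more than those of the other groups, as described with the genotype comparison. By the study's stricter call, which adds a log2 difference beyond 2, 3 members passed in WT (*Ptgs1*, *Ptgs2* and *Ptges*), against 4.32% of all genes, and 3 in cGAS-/- (*Ptgs2*, *Ptges* and *Hpgds*), against 3.5%. The same members passed it without WT LPS replicate 3, against 3.73% of all genes in WT and 3.59% in cGAS-/-. The LPS and UT libraries did not overlap for 8 of the 9 members in WT, all but *Pla2g4a*, as for 38.2% of all genes, and for 9 of 9 in cGAS-/-, as for 55.7%. *Alox5* was not tested, since it never reached 1 TPM.

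Of the 8 marker lists, the sums of 2 also separated LPS from UT without overlap in WT and of 4 in cGAS-/-, and most of these sums rest on 1 gene. The macrophage sum in cGAS-/- was higher with LPS through *Lyz2* (19282 to 21141 TPM in UT, 32927 to 33426 TPM in LPS). With *Lyz2* left out, a choice made after these values were seen, the other 8 macrophage markers were lower with LPS in both genotypes, at 5191 to 5802 and 2622 to 2802 TPM in cGAS-/- and at 7424 to 7677 and 2132 to 7059 TPM in WT. The platelet sum in cGAS-/- was higher through *Pf4* (55.5 to 57.9 and 87.0 to 105 TPM), and the other 8 genes of that list were lower (3.77 to 4.72 and 0.635 to 2.35 TPM). Dendritic cell genes summed to 7.84 to 8.85 TPM in WT UT and 0.588 to 2.30 TPM in WT LPS, and to 4.71 to 6.43 and 1.93 to 2.34 TPM in cGAS-/-, most of it *Itgax* in UT. The eosinophil sum in WT was higher through *Ccr3* (5.86 to 8.87 and 11.5 to 55.2 TPM), while *Epx*, *Prg2* and *Prg3* were at 0 in every LPS library. B cell genes in cGAS-/- summed to 1.46 to 1.86 and 0.411 to 1.38 TPM. Their part in the LPS differences was not tested. In bulk RNA, fewer cells of a type and less RNA per cell cannot be told apart.

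The scale matters for these directions. The median difference of all genes between LPS and UT was -0.46 (log2) in WT and -0.20 in cGAS-/- on the values as deposited, against -0.09 and -0.02 after TMM scaling, which fits each library to the bulk of the genes. In WT, 512 genes were called higher and 2774 lower as deposited, against 921 and 1454 after TMM scaling. The median of the 9 members was -1.31 in WT and -0.77 in cGAS-/- as deposited. After TMM scaling, each call above kept its direction and passed, except *Tbxas1* in WT (log2 difference -0.73, adjusted p = 0.0692, limma).

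*Pla2g4a*, the cytosolic phospholipase A2 that starts both branches, was at 1.83, 2.08 and 1.93 TPM in WT UT and at 5.32, 6.42 and 0.325 TPM in WT LPS. WT LPS replicate 3 was the lowest of all 12 libraries, and the other 2 WT LPS libraries lay above every UT library. The values were 1.74, 1.48 and 2.94 TPM in cGAS-/- UT and 6.12, 4.71 and 6.23 TPM in cGAS-/- LPS, which did not overlap. The log2 difference of LPS from UT was 0.43 (SE 0.52) in WT (adjusted p = 0.546) and 1.15 in cGAS-/- (adjusted p = 0.196), neither passing (limma). With WT LPS replicate 3 left out it was 1.22 in WT (adjusted p = 0.00134) and 1.15 in cGAS-/- (adjusted p = 8.76e-04).

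*Ptgs1*, the gene for COX-1, was at 10.05, 7.84 and 7.27 TPM in WT UT and at 0.406, 0.340 and 1.85 TPM in WT LPS. The corresponding cGAS-/- values were 3.70, 3.53 and 4.62 TPM in UT and 0.569, 0.386 and 0.334 TPM in LPS. In both genotypes every LPS library lay below every UT library, and the mean was 9.69-fold lower in WT and 9.19-fold lower in cGAS-/-. The log2(TPM + 1) difference was -2.41 (SE 0.28, adjusted p = 1.43e-04) in WT and -1.79 (SE 0.28, adjusted p = 0.0012) in cGAS-/- (limma). The WT mean was 22.5-fold lower without WT LPS replicate 3, and the WT log2 difference -2.76 (adjusted p = 1.54e-06). The log2 scale used, log2(TPM + 1), which holds for all log2 differences here, understates the change of low genes.

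*Ptgs2*, the gene for COX-2, was at 0.786, 1.04 and 0.423 TPM in WT UT and at 9.64, 16.8 and 1.49 TPM in WT LPS. In cGAS-/- cells it was at 0.351, 0.876 and 0.594 TPM in UT and at 57.6, 51.8 and 54.3 TPM in LPS. The LPS libraries lay above the UT libraries in both genotypes, and WT LPS replicate 3 was the WT LPS library nearest to UT. The rise was 2.17 (SE 0.55, adjusted p = 0.0149) on the log2 scale in WT and 5.12 (SE 0.55, adjusted p = 9.45e-05) in cGAS-/- (limma), and 2.99 in WT without WT LPS replicate 3 (adjusted p = 1.13e-05). The WT call was lost in 2 of 23 alternatives, without WT UT replicate 3 (2.03, adjusted p = 0.0547) and in a fit of the 6 WT libraries alone (2.17, adjusted p = 0.118), which also lost the WT calls of *Hpgds*, *Tbxas1* and *Alox5ap*.

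*Ptges*, which encodes the inducible prostaglandin E synthase, was near the floor in untreated cells, at 0.390, 0.205 and 0.513 TPM in WT and 0.217, 0.180 and 0.306 TPM in cGAS-/-. With LPS it was at 18.1, 32.5 and 70.8 TPM in WT and at 57.8, 57.9 and 49.2 TPM in cGAS-/-. WT LPS replicate 3, which was low for *Ptgs2*, was the highest library of all for *Ptges*. The log2 rise was 4.71 (SE 0.38, adjusted p = 1.28e-05) in WT, 4.21 without that library (adjusted p = 6.4e-07), and 5.50 (SE 0.38, adjusted p = 4.75e-06) in cGAS-/- (limma).

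*Hpgds*, whose product makes prostaglandin D2, was at 67.2, 73.6 and 63.0 TPM in WT UT, 22.7, 25.3 and 10.7 TPM in WT LPS, 69.7, 74.3 and 68.9 TPM in cGAS-/- UT and 15.7, 17.3 and 16.03 TPM in cGAS-/- LPS. No LPS library overlapped the UT libraries. The mean was 3.47-fold lower in WT and 4.35-fold lower in cGAS-/-, with log2 differences of -1.83 (SE 0.29, adjusted p = 0.00123) and -2.06 (SE 0.29, adjusted p = 7.23e-04) (limma). The WT value without replicate 3 was -1.46 (adjusted p = 5.97e-06).

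*Tbxas1*, the thromboxane synthase gene, held close together in untreated cells, at 14.6, 14.9 and 14.9 TPM in WT and 13.7, 13.3 and 13.1 TPM in cGAS-/-. With LPS it was at 6.996, 10.5 and 1.86 TPM in WT and at 7.65, 7.34 and 7.22 TPM in cGAS-/-, all below the untreated libraries. The fall passed in WT (log2 difference -1.31, SE 0.40, adjusted p = 0.0335) but not in cGAS-/- (-0.77, SE 0.40, adjusted p = 0.268) (limma), and the difference between the genotypes did not pass (0.54, adjusted p = 0.718). The WT call failed in 12 of 23 alternatives, and leaving out any 1 WT UT or cGAS-/- library ended it, with adjusted p between 0.0502 and 0.0876. Leaving out WT LPS replicate 3 gave log2 differences of -0.73 in WT (adjusted p = 0.0036) and -0.77 in cGAS-/- (adjusted p = 0.00122).

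In the leukotriene branch, *Alox5* itself was barely measured. It was at 0.347, 0.214 and 0.354 TPM in WT UT, 0.210, 0.0355 and 0 TPM in WT LPS, 0.229, 0.226 and 0.101 TPM in cGAS-/- UT and 0.0424, 0.0450 and 0.0513 TPM in cGAS-/- LPS. The WT LPS libraries were all below the WT UT libraries, as were the cGAS-/- LPS libraries below the cGAS-/- UT libraries, but at under 0.4 TPM and unknown depth no test was made. Its partner *Alox5ap* was the highest member, at 156, 192 and 181 TPM in WT UT and 216, 191 and 199 TPM in cGAS-/- UT. With LPS it was at 82.5, 90.0 and 46.8 TPM in WT and 83.3, 100.1 and 91.6 TPM in cGAS-/-. The groups did not overlap, and the mean was 2.41-fold lower in WT and 2.20-fold lower in cGAS-/-. The log2 differences were -1.31 (SE 0.27, adjusted p = 0.00489) and -1.13 (SE 0.27, adjusted p = 0.015) (limma), and -1.02 in WT without replicate 3 (adjusted p = 1.63e-04). The cGAS-/- call failed when any 1 of 5 of the cGAS-/- libraries was left out, that is all but LPS replicate 2, with adjusted p between 0.0501 and 0.0735.

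*Ltc4s*, the leukotriene C4 synthase gene, was at 1.38, 1.33 and 2.24 TPM in WT UT and 1.98, 1.76 and 1.22 TPM in cGAS-/- UT. With LPS it was listed at 0, 0.109 and 0 TPM in WT and at 0.0621, 0.151 and 0 TPM in cGAS-/-. The log2 differences were -1.34 (SE 0.18, adjusted p = 3.66e-04) in WT and -1.30 (SE 0.18, adjusted p = 5.28e-04) in cGAS-/- (limma), bounded by the low starting level, and -1.31 (adjusted p = 5.81e-04) in WT without replicate 3. *Lta4h*, whose product makes leukotriene B4, was at 8.24, 8.62 and 7.29 TPM in WT UT, 5.39, 4.53 and 0.406 TPM in WT LPS, 7.07, 8.27 and 8.22 TPM in cGAS-/- UT and 4.94, 4.80 and 5.37 TPM in cGAS-/- LPS. All LPS libraries were below the UT libraries, but the differences of -1.30 in WT (adjusted p = 0.054) and -0.55 in cGAS-/- (adjusted p = 0.528) did not pass (limma). When WT LPS replicate 3 was left out they were -0.60 (adjusted p = 0.00502) and -0.55 (adjusted p = 0.00441).

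**Figure D2:**
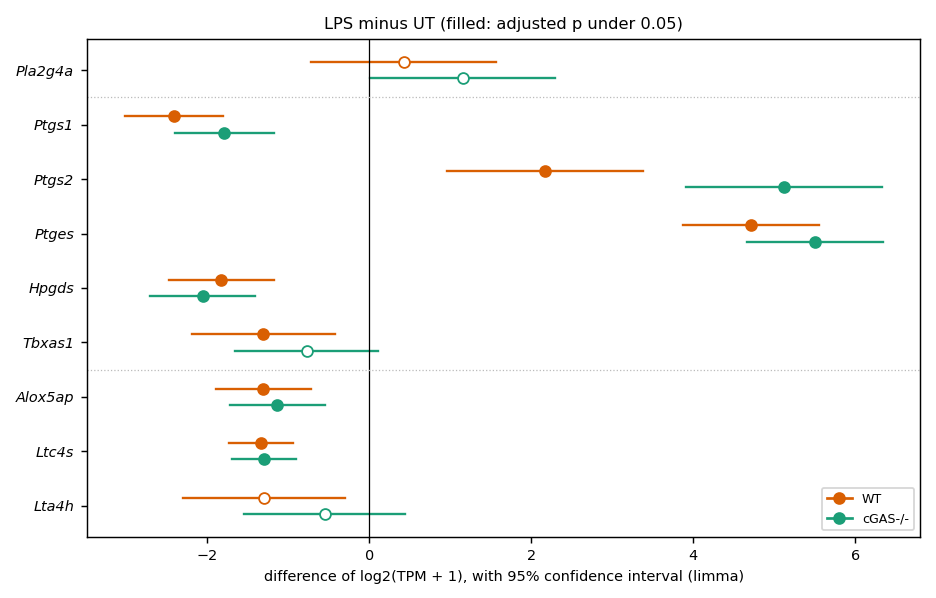
Difference of log2(TPM + 1) between LPS and UT (horizontal axis) with its 95% confidence interval (limma, 12 libraries) for the 9 members tested, in WT and cGAS-/- cells. *Ptges* (4.71 and 5.50) and *Ptgs2* (2.17 and 5.12) lie to the right of 0, and the 3 leukotriene members at the bottom lie to the left.

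By branch, of the 5 prostaglandin members, 2 rose and 3 fell in WT, and 2 rose and 2 fell in cGAS-/-. Of the 3 leukotriene members tested, 0 rose and 2 fell in each genotype. Over all genes 4.31% were higher and 23.3% lower in WT, and 4.76% and 9.06% in cGAS-/-, so that with 3 members tested no contrast between the branches is read from these counts. Within each library, the ratio of *Ptgs2* to *Ptgs1*, the inducible against the constitutive cyclooxygenase, does not depend on the library's scale. It was 0.0582 to 0.248 in the 6 UT libraries. It was 23.7, 49.2 and 0.806 in WT LPS and 101, 134 and 162 in cGAS-/- LPS. The gene with the higher deposited value thus changed in 5 of the 6 LPS libraries, all but WT LPS replicate 3. A ratio of 1 need not mean equal levels of the genes, since values are averaged over transcripts. The ratio of *Ptges* to *Hpgds* set the inducible prostaglandin E2 synthase against the hematopoietic prostaglandin D2 synthase. It was 0.00243 to 0.00814 in UT, 0.797, 1.28 and 6.62 in WT LPS and 3.69, 3.36 and 3.07 in cGAS-/- LPS. Here WT LPS replicate 3 was the highest library. *Ptges* is not the only prostaglandin E synthase gene. *Ptges3* had means of 43.2 and 33.1 TPM in WT UT and LPS, and of 48.0 and 63.8 TPM in cGAS-/- UT and LPS. *Ptges2* had means of 4.48, 6.91, 5.00 and 5.81 TPM in the same order.

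**Figure D3:**
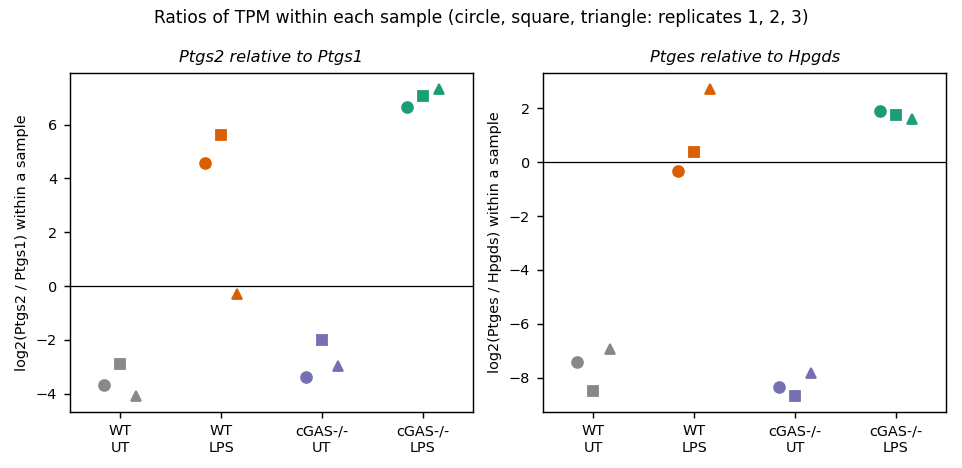
Ratios of TPM within each library on a log2 axis, *Ptgs2* to *Ptgs1* on the left and *Ptges* to *Hpgds* on the right. The horizontal line marks equal deposited values, which need not be equal levels of the genes, since values are averaged over transcripts. Every LPS library lies above every UT library in both panels, and the triangle in WT LPS, replicate 3, is the lowest LPS library on the left and the highest on the right.

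Summed over members, the prostaglandin branch was 0.389 to 0.560 times the leukotriene branch in UT, 0.657, 0.902 and 1.84 times in WT LPS and 1.58, 1.28 and 1.31 times in cGAS-/- LPS. These sums depend on the averaging over transcripts. With each level multiplied by the smallest whole number of transcripts that the decimals allow, a scale added after the values were seen, the ratio was 0.867 to 1.07 in UT, 1.05, 1.64 and 6.17 in WT LPS and 2.14, 1.97 and 1.76 in cGAS-/- LPS. *Alox5ap* made up 93.6% to 99.1% of the leukotriene sum on the first scale and 43.0% to 85.2% on the second, so its share is not settled. *Ptgs2* and *Ptges* together made up 0.649% to 1.28% of the prostaglandin sum in UT, 47.9%, 57.7% and 83.4% in WT LPS and 81.4% to 82.9% in cGAS-/- LPS. On the second scale their share was 0.376% to 0.745% in UT, 40.8%, 49.3% and 84.0% in WT LPS and 71.5% to 73.6% in cGAS-/- LPS, so both scales have it higher in every LPS library.

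Between genotypes, *Ptgs2* was higher in cGAS-/- than in WT macrophages after LPS, and no member passed in untreated cells. The mean of *Ptgs2* in LPS-treated cells was 5.87-fold higher in cGAS-/-, 54.6 ± 2.90 TPM (SD, n = 3), than in WT, 9.30 ± 7.64 TPM (SD, n = 3), and the libraries did not overlap. The log2 difference was 2.84 (SE 0.55, adjusted p = 0.023, limma). This SE rests on one spread for all 4 groups, although the WT LPS libraries spread the most. Library weights, estimated over all genes, were 0.346, 0.159 and 0.0352 in WT LPS and 1.38 to 2.57 in the other groups. The SE thus understates the WT LPS spread, and the adjusted p rests on it. *Ptgs2* was the 1 of 9 members that passed, against 2.36% of all genes tested (1.36% higher). It was also the 1 of 9 whose libraries did not overlap, as was so for 17.7% of all genes. Without WT LPS replicate 3, 3 of 9 passed, against 8.28% of all genes (3.84% higher, 4.44% lower): *Ptgs2* (2.01, adjusted p = 8.16e-04) and *Ptges* (1.14, adjusted p = 0.0107) were higher in cGAS-/-, and *Hpgds* was lower (-0.53, adjusted p = 0.0133). With all 12 libraries, *Ptges* differed by 0.64 (adjusted p = 0.367) and *Hpgds* by -0.17 (adjusted p = 0.76). The *Ptgs2* call was lost in 6 of 23 alternatives: when any 1 cGAS-/- LPS library was left out (adjusted p = 0.0869 to 0.102, log2 difference 2.80 to 2.87), with a pseudocount of 0.1 (adjusted p = 0.0649), with no filter on low values (adjusted p = 0.0677), and when the fit used only the 6 LPS libraries (adjusted p = 0.362). The fold depended on which WT LPS library was left out: it was 5.98 without replicate 1, 9.81 without replicate 2 and 4.14 without replicate 3, with log2 differences of 3.06, 3.43 and 2.01. The sums of 4 of the 8 marker lists also separated these groups without overlap. *Lyz2* was at 15701 to 26384 TPM in WT LPS and 32927 to 33426 TPM in cGAS-/- LPS, whereas the other 8 macrophage markers (2132 to 7059 and 2622 to 2802 TPM) overlapped. Fibroblast genes (6.05 to 17.2 and 2.98 to 4.003 TPM) and B cell genes (3.19 to 4.26 and 0.411 to 1.38 TPM) were lower in cGAS-/- LPS. So was the eosinophil list, but only through *Ccr3* (11.5 to 55.2 and 8.63 to 10.8 TPM). Their part in the *Ptgs2* difference was not tested.

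The other members did not pass after LPS. *Pla2g4a* differed by 0.75 (95% CI -0.40 to 1.89), *Lta4h* by 0.71 (-0.28 to 1.71), *Tbxas1* by 0.39 (-0.49 to 1.28) and *Alox5ap* by 0.37 (-0.21 to 0.96), with 95% confidence intervals in brackets. *Ltc4s* differed by 0.05 (-0.35 to 0.44) and *Ptgs1* by -0.30 (-0.91 to 0.31). The median of the 9 members was 0.39, against 0.20 for all genes tested, which TMM scaling brought to 0.04.

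In untreated cells 0 of 9 members passed (limma), with 1 at an unadjusted p under 0.05, against 1.83% of all genes that passed. That member was *Ptgs1*, with a mean 2.12-fold lower in cGAS-/- (3.95 ± 0.58 TPM, SD, n = 3) than in WT (8.39 ± 1.47 TPM, SD, n = 3). The libraries did not overlap, as was so for *Tbxas1* and for 30.5% of all genes. The log2 difference was -0.92 (SE 0.28, adjusted p = 0.195), and it passed without WT LPS replicate 3 (adjusted p = 0.00495), where 5.33% of all genes did (4.17% lower). COX-1 is abundant in platelets, and the platelet and megakaryocyte list (9 of its 10 genes in the table) moved the same way. It summed to 90.1 to 106 TPM in WT UT and 60.2 to 61.7 TPM in cGAS-/- UT, most of it *Pf4* (mean 77.6 and 56.8 TPM), with *Gp9* at 0 in all cGAS-/- UT libraries. Without *Pf4* the list summed to 15.9 to 23.7 TPM and 3.77 to 4.72 TPM. Fibroblast genes summed to 7.54 to 9.58 TPM in WT UT and 2.12 to 3.97 TPM in cGAS-/- UT, neutrophil genes to 173 to 244 TPM and 85.8 to 157 TPM, and dendritic cell genes to 7.84 to 8.85 TPM and 4.71 to 6.43 TPM. B cell genes summed to 2.03 to 4.70 TPM and 1.46 to 1.86 TPM. Among macrophage markers, *Lyz2* was higher in cGAS-/- UT (15974 to 16658 TPM in WT, 19282 to 21141 TPM in cGAS-/-) and the other 8 together were lower (7424 to 7677 and 5191 to 5802 TPM). The eosinophil list (6.18 to 9.71 and 9.504 to 11.1 TPM) and the mast cell and basophil list (0.719 to 1.21 and 0.746 to 1.46 TPM) overlapped. The part of these cells in the *Ptgs1* difference was not tested.

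The LPS response differed between genotypes for 0 of 9 members (interaction term, limma), with 1 at an unadjusted p under 0.05, against 0.9% of all genes that passed. For *Ptgs2* the rise was larger in cGAS-/- by 2.96 (SE 0.78, adjusted p = 0.139). Without WT LPS replicate 3, 4 of 9 passed, against 4.56% of all genes (2.92% higher, 1.64% lower): *Ptgs2* (2.13, adjusted p = 0.00471), *Ptges* (1.29, adjusted p = 0.0365), *Ptgs1* (0.97, adjusted p = 0.0355) and *Hpgds* (-0.60, adjusted p = 0.046). No leukotriene member was among them. This comparison shares its libraries with the ones above, so it adds no separate data.

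**Figure D4:**
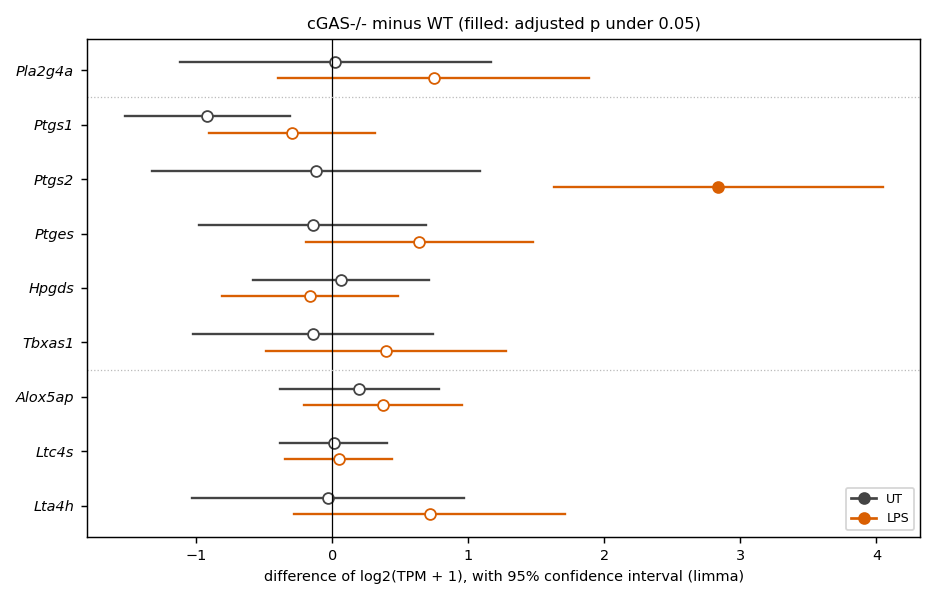
Difference of log2(TPM + 1) between cGAS-/- and WT (horizontal axis) with its 95% confidence interval (limma, 12 libraries) for the 9 members tested, in UT and in LPS. *Ptgs2* in LPS (2.84) is the one filled point, that is, the one with adjusted p under 0.05, and *Ptgs1* in UT (-0.92) has an interval below 0 without passing the adjustment.

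Other genes of the pathway were taken from a list of 63, of which 43 were in the table and 27 were tested. In WT, LPS raised 2 and lowered 12 of the 27, where 4.31% of all genes were higher and 23.3% lower, and in cGAS-/- it raised 3 and lowered 5, where 4.76% and 9.06% were. The same shares stand behind the counts of each group of pathway genes that follows. The list's median difference was -0.61 in WT and -0.18 in cGAS-/-, against -0.46 and -0.20 over all genes tested. The 14 calls in WT and the 8 in cGAS-/- also passed without WT LPS replicate 3, and those of *Lpcat3*, *Cotl1* and *Ptgr2* in WT were lost after TMM scaling. Among genes of eicosanoid breakdown and transport, 3 of 3 tested fell in WT and 1 of 3 in cGAS-/-. *Hpgd*, the dehydrogenase that inactivates prostaglandins, was at 17.7, 19.0 and 13.4 TPM in WT UT and at 0.521, 0 and 0 TPM in WT LPS. In cGAS-/- it was at 22.5, 23.7 and 21.9 TPM in UT and at 0.0577, 0 and 0.239 TPM in LPS. Its log2 differences of -3.93 (adjusted p = 1.58e-06) and -4.44 (adjusted p = 5.08e-07) were the most negative among the pathway genes tested (limma). *Ptgr1* and *Ptgr2*, prostaglandin reductases, fell in WT, with log2 differences of -1.53 (adjusted p = 0.0165) and -1.09 (adjusted p = 0.0132), and of -0.96 (adjusted p = 1.78e-04) and -0.92 (adjusted p = 0.0184) without WT LPS replicate 3 (limma). The *Ptgr1* call was lost in 3 of 23 alternatives (adjusted p up to 0.147) and the *Ptgr2* call in 5 of 23 (up to 0.149). The *Hpgd* value in WT without that library was -3.83 (adjusted p = 7.77e-07).

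Among the other leukotriene genes, 3 of 4 tested fell in WT, and 1 rose and 1 fell in cGAS-/-. *Mgst3*, a microsomal glutathione transferase related to *Ltc4s*, went from 32.1 to 46.6 TPM in WT UT to 0.485 to 6.94 TPM in WT LPS, and from 43.1 to 50.8 TPM to 3.23 to 6.48 TPM in cGAS-/-, with log2 differences of -3.34 (adjusted p = 8.09e-04) and -3.14 (adjusted p = 0.00144) (limma). *Dpep2*, a dipeptidase that converts leukotriene D4, and *Cotl1*, a 5-lipoxygenase-binding protein, fell in WT, with log2 differences of -2.09 (adjusted p = 0.0124) and -1.13 (adjusted p = 0.0376) (limma). The *Cotl1* call was lost in 12 of 23 alternatives and the *Dpep2* call in 1 of 23 (limma, adjusted p up to 0.117). Without WT LPS replicate 3 the WT values were -2.65 for *Mgst3* (adjusted p = 7.03e-05), -1.32 for *Dpep2* (adjusted p = 6.36e-05) and -0.62 for *Cotl1* (adjusted p = 4.41e-04).

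Of the 9 tested genes of arachidonate release and reacylation, 2 rose and 3 fell in WT, and 1 rose and 1 fell in cGAS-/-. *Acsl1*, an acyl-CoA synthetase, rose in both genotypes, from 2.15 to 2.46 TPM in WT UT to 4.23 to 26.1 TPM in WT LPS, and from 2.87 to 3.11 TPM to 41.3 to 42.4 TPM in cGAS-/-. Its log2 differences were 1.88 (adjusted p = 0.0113) and 3.42 (adjusted p = 3.7e-04) (limma). The WT call was lost in 1 of 23 alternatives (limma, adjusted p up to 0.113). *Pla2g15*, the lysosomal phospholipase A2, fell in both (-2.21, adjusted p = 2.68e-04, and -1.75, adjusted p = 0.0015). In WT alone *Pla2g5*, a secreted phospholipase A2, passed upward (0.69, adjusted p = 0.023), and *Lpcat3*, which returns arachidonate to phospholipids, passed downward (-0.61, adjusted p = 0.0467), calls lost in 5 of 22 and 16 of 23 alternatives. Without WT LPS replicate 3 the WT values were 2.50 for *Acsl1* (adjusted p = 4.25e-05), -1.94 for *Pla2g15* (adjusted p = 3.69e-05), 0.63 for *Pla2g5* (adjusted p = 0.0456) and -0.62 for *Lpcat3* (adjusted p = 0.0288). *Mgll*, monoacylglycerol lipase, fell in WT (-0.86, adjusted p = 0.00251) and was lower in cGAS-/- UT than in WT UT (-0.73, adjusted p = 0.0397), at levels of 1.36 TPM or less. The former call was lost in 3 of 22 alternatives and the latter in 13 of 22.

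Among epoxide and cytochrome genes, *Ephx1*, microsomal epoxide hydrolase, was at 12.3, 10.6 and 13.3 TPM in WT UT and at 3.64, 3.71 and 3.40 TPM in cGAS-/- UT (log2 difference -1.51, adjusted p = 7.66e-04, limma). With LPS it was at 0.534, 0.544 and 0.271 TPM in WT and at 0.646, 0.480 and 0.484 TPM in cGAS-/-, where the genotypes overlapped. *Cyp2j6* fell in both genotypes (-1.86, adjusted p = 0.00192, and -1.62, adjusted p = 0.00583, limma). Its WT call was lost in 1 of 23 alternatives (limma, adjusted p up to 0.0528). In the other prostanoid synthases, *Akr1b3*, an aldo-keto reductase, fell in WT (-1.75, adjusted p = 0.0203), a call lost in 4 of 23 alternatives (adjusted p up to 0.152), and no other passed. Its value without WT LPS replicate 3 was -1.02 (adjusted p = 8e-05), that of *Cyp2j6* in WT -1.45 (adjusted p = 5.61e-04). In the receptors, 2 of 15 were tested. *Ptgir*, the prostacyclin receptor, was at 2.01 to 2.59 TPM in WT UT, 2.30 to 3.57 TPM in WT LPS, 2.49 to 2.78 TPM in cGAS-/- UT and 5.97 to 6.80 TPM in cGAS-/- LPS. It rose with LPS in cGAS-/- (1.05, adjusted p = 0.00277) and was higher in cGAS-/- than in WT after LPS (0.90, adjusted p = 0.0313), a call that 14 of 23 alternatives lost (limma). It was the 1 of 27 pathway genes that differed between genotypes after LPS, where 2.36% of all genes did, so this count is near the background.

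**Figure D5:**
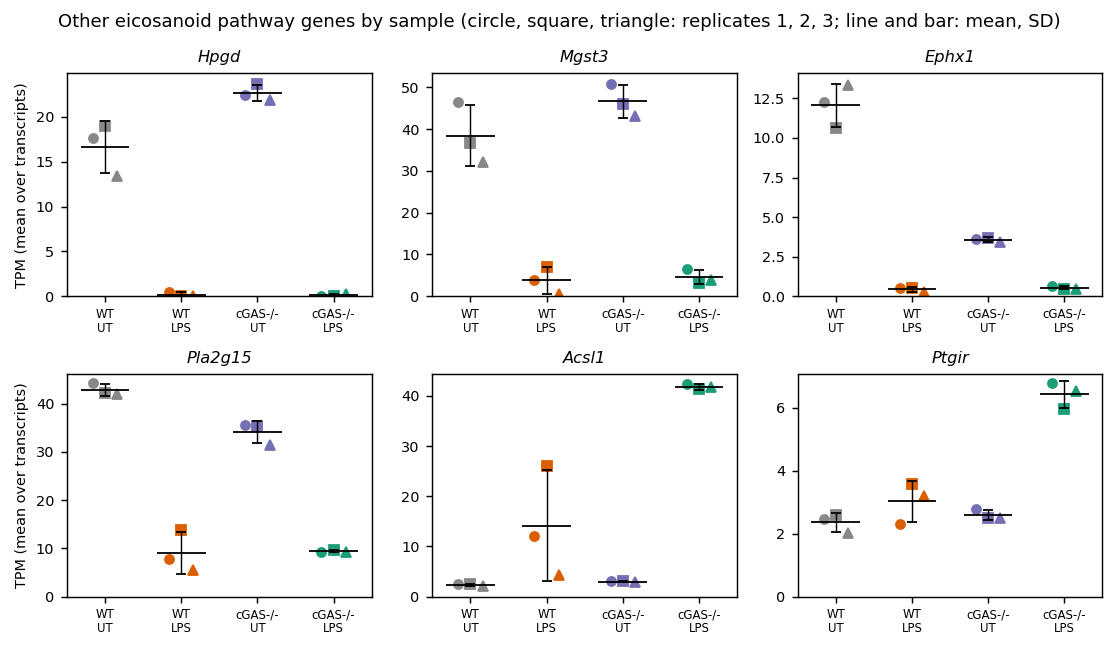
TPM (vertical axis, from 0, separate scale per gene) of 6 other pathway genes in the 12 libraries, with points for libraries and lines and bars for the mean and SD (n = 3). *Hpgd* is at 0.521 TPM or less in every LPS library, and *Acsl1* and *Ptgir* are highest in cGAS-/- LPS.

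The genes whose pattern over the 12 libraries was most like that of *Ptgs2*, by Pearson's r on log2(TPM + 1) among 11878 other genes, were *Cxcl1* (r = 0.994), *Acsl1* (0.992), *Vasp* (0.991), *Tpi1* (0.991) and *Slc16a3* (0.990). *Cxcl1*, a chemokine, was at 1.35 to 2.10 TPM in WT UT, 4.40 to 30.9 TPM in WT LPS, 0.793 to 3.03 TPM in cGAS-/- UT and 114 to 133 TPM in cGAS-/- LPS, with WT LPS replicate 3 its lowest LPS library too. For *Alox5* they were *Tbc1d17* (0.944), *Ppan* (0.936), a gene known by the identifier ENSMUSG00002076556 (0.929), *Egr2* (0.926) and *Gm42674* (0.926). These correlations describe libraries that fall into separate groups and share the same scale, and that for *Alox5* rests on values under 0.4 TPM.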

How the data were processed

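The authors prepared stranded libraries, trimmed the reads with fastp, aligned them with STAR to the GRCm39 genome and estimated abundances with kallisto, per the labels and the study's methods. Versions are not given in the sources used here. The deposited values were read as TPM, averaged for each symbol across its transcripts, which was inferred from the values: the totals of the 12 columns run from 447189 to 503156, and to 709802 in WT LPS replicate 3. Read numbers are unknown, so no counting error is given. Genes at 1 TPM or more in at least 3 libraries, after scaling each library to 1000000 for this filter only, were tested (11887 genes). log2(TPM + 1) was fitted with limma 3.58.1 in R 4.3.3, with 1 mean per group over all 12 libraries and a variance trend, and p-values were adjusted by Benjamini-Hochberg over all genes tested. Passing means an adjusted p under 0.05. The stricter call of the study's methods adds a log2 difference beyond 2. The script was checked on simulated data.

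The members, the pathway and marker lists and the tests were chosen with earlier results of these data known. Named were all 10 members, pathway genes that passed between 2 groups, the highest marker of a list, and the 5 genes most like *Ptgs2* and *Alox5*. *Gp9*, *Fcer1a*, *Epx*, *Prg2* and *Prg3* were named for being at 0. The table holds no symbol for some genes, which were not analysed here. The gaps appear to take in whole chromosomes, so they affect the lists and the shares of all genes. In the table were 9 of 12 macrophage markers, 7 of 14 mast cell and basophil markers, 5 of 15 receptors and 43 of 63 pathway genes. Promoters come from RefSeq (GRCm38.p6). Libraries sharing a replicate number did not deviate together (correlations -0.0315 to 0.0383, 18 pairs), so the numbers were not used as pairs. Alternatives were other pseudocounts (0.1 and 5), filters (none and 5 TPM), scalings (TMM, written out from its formula, quantile, common total), library weights, no variance trend, a replicate block, only the libraries compared, and each library left out.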

Additional observations from a re-analysis of the deposited data

Results flagged for a closer look

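Among the pathway genes outside the members, *Ephx1* was flagged because its response to LPS differed between genotypes: the interaction was 1.59 on the log2 scale (limma, adjusted p = 0.00977), with a fall of -3.17 in WT and -1.58 in cGAS-/-. That call was lost in 2 of 22 alternatives (adjusted p up to 0.122). *Mgst2*, a microsomal glutathione transferase that can make leukotriene C4, was flagged because every WT LPS library lay below every WT UT library (-0.31) and every cGAS-/- LPS library above every cGAS-/- UT library (0.61, adjusted p = 0.0347), a call lost in 6 of 22 alternatives (adjusted p up to 0.134). Its interaction of 0.92 did not pass (adjusted p = 0.132), and its level was 0.851 TPM or less in every library. *Ptgr1* was flagged because it was lower with LPS in WT (-1.53) and at 0.31 in cGAS-/- (adjusted p = 0.708), with no overlap of libraries in either, and because cGAS-/- differed from WT by -0.66 in UT (adjusted p = 0.939) and by 1.18 in LPS (adjusted p = 0.161). Its interaction of 1.84 did not pass (adjusted p = 0.221, limma).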

How the results depend on the processing

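Of the 14 member results that passed, 8 kept their direction and their side of the threshold in every alternative run. Over 320 alternatives to the 14, 293 passed in the same direction, 27 did not pass and 0 reversed. The 31 member results that did not pass had 701 alternatives, of which 29 passed in the same direction and 31 reversed. The order of levels depends on the averaging over transcripts, and the unknown depth limits the genes under 1 TPM. The cause of the changes below was not tested.

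Counts of members that passed follow, with the share of all genes tested that passed in the same fit in brackets. Between untreated genotypes it was 0 (1.83%), and 1 (*Ptgs1*) with a pseudocount of 5 (2.66%), library weights (11.5%) or only the libraries compared (10.4%), and 0 to 1 when a library was left out (1.03% to 5.33%). After LPS it was 1 (2.36%), and 0 with a pseudocount of 0.1 (1.37%), no filter (0.725%) or only the libraries compared (0.0421%), and 0 to 3 when a library was left out (0.648% to 27.9%). For LPS in WT it was 7 (27.6%), 3 with only the libraries compared (6.02%) or with a log2 difference beyond 2 (4.32%), and 5 to 9 when a library was left out (16.5% to 48.7%). For LPS in cGAS-/- it was 6 (13.8%), 3 with that limit (3.5%), 9 with library weights (48.3%) or only the libraries compared (44.6%), and 5 to 9 when a library was left out (8.58% to 30.8%). For the interaction it was 0 (0.9%), and 1 (*Ptgs2*) with a pseudocount of 5 (1.72%) or library weights (2.46%), and 0 to 4 when a library was left out (0.353% to 12.6%). With only the libraries compared in WT, 1 prostaglandin member rose, 1 fell and 1 leukotriene member fell, against 2, 3 and 2, and leaving out a library gave 1 to 2 that rose. In cGAS-/-, 1 leukotriene member fell with a filter of 5 TPM (17.7%), which leaves *Ltc4s* out, and 1 to 3 when a library was left out. With the replicate block the counts were 0, 1, 7, 6 and 0, the same as without it.

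The reversals, all of log2 differences that did not pass, were these. Between untreated genotypes, *Pla2g4a* was at -0.029 with a common total, -0.045 with library weights and -0.18 to 0.16 without 1 library. *Hpgds* was at -0.011 with a common total. *Ltc4s* was at -0.039 with a common total and -0.081 to 0.16 without 1 library, and *Lta4h* at 0.025 with quantile scaling and -0.094 to 0.034 without 1 library. After LPS, *Alox5ap* was at -6e-04 with TMM scaling and *Ltc4s* at -0.019 with quantile scaling. The genotype differences after LPS without 1 library were -0.043 to 1.20 for *Pla2g4a*, -0.49 to 0.055 for *Ptgs1*, -0.53 to 0.055 for *Hpgds*, -0.19 to 0.81 for *Tbxas1* and -0.0064 to 0.097 for *Ltc4s*. The *Pla2g4a* response in WT was -0.025 to 1.22 without 1 library. For the interaction, *Alox5ap* was at -0.23 with TMM scaling, -0.0015 with quantile scaling, -0.018 with library weights and -0.11 to 0.35 without 1 library, and *Ltc4s* at -0.10 with quantile scaling and -0.12 to 0.13 without 1 library. *Pla2g4a* and *Tbxas1* ranged from -0.066 to 1.18 and from -0.046 to 0.96 without 1 library.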
